A study of Mus musculus with 12 samples.

Results

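The mitochondrial carriers of the Slc25 family were followed through mouse preimplantation development, through an arrest at 4 cells and through the release from it. The family was taken as every gene whose symbol on the array annotation begins with Slc25a, which gave 44 genes, measured by 93 probe sets, among 18194 named genes. Where a gene had several probe sets, the one with the highest mean over all arrays was used, and levels are given as log2(intensity + 1). The embryos were of the ICR strain, and 12 Affymetrix Mouse Genome 430 2.0 arrays covered 6 groups of 2. Control embryos were taken as 2-cell embryos at day 1.5, with 4 to 8 cells at day 2.5, and as morulae to blastocysts at day 3.5. U0126 embryos were taken at day 2.5 after exposure to 20 µM of U0126, which inhibits the MEK kinases that activate ERK, and had stopped at 4 cells. Released embryos had been freed from this arrest and were taken with 8 cells at day 3.5 and as morulae to blastocysts at day 4.5. No genetic alteration is named for any group, and the number of embryos behind each array is not stated in the labels. The 2 arrays of a group came from 2 separate experiments, and values below are given in the order replicate 1, replicate 2.

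Most carriers of this family sit in the inner mitochondrial membrane and move small molecules, such as a nucleotide, an amino acid, a carboxylate or a cofactor, between the cytosol and the matrix. ADP/ATP and phosphate carriers supply the ATP synthase and export its product. The aspartate/glutamate and oxoglutarate carriers together form the malate-aspartate shuttle, which brings reducing equivalents from the cytosol into the matrix and is known to matter for the lactate and pyruvate metabolism of early embryos. Before the blastocyst the mouse embryo lives on mitochondria inherited from the egg, while its transcripts change from maternal to embryonic ones.

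Promoter windows of the 3 ADP/ATP carriers and the 2 aspartate/glutamate carriers are shown because these genes carry the changes described below. They are from RefSeq, assembly GRCm38.p6, and hold the 250 bases before the annotated start, written 5′ to 3′ on the gene's strand: Slc25a4 (chr8:46211063-46211312, minus strand), Slc25a5 (chrX:36795347-36795596, plus strand), Slc25a31 (chr3:40708621-40708870, plus strand), Slc25a12 (chr2:71367756-71368005, minus strand) and Slc25a13 (chr6:6217174-6217423, minus strand). Capitals mark matches on either strand. The ETS core, which GABPA binds, was searched for as CCGGAAG. An E2F core was searched for as TCCCGC, and the CCAAT box by the letters of its name. The GC box was searched for as GGGCGG and the E-box as CACGTG. The NRF1 core was searched for as a pair of GCGC runs that lie 2 bases apart.
Slc25a4: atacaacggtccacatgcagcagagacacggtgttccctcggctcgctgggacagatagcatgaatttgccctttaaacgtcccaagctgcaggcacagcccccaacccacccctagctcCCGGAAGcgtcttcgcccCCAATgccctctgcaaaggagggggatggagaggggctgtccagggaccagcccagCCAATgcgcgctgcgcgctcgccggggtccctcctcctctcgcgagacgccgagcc
Slc25a5: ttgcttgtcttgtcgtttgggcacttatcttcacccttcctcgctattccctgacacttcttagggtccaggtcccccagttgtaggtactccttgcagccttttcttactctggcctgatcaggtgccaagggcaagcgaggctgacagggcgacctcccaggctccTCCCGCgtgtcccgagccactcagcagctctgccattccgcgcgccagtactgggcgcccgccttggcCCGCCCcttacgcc
Slc25a31: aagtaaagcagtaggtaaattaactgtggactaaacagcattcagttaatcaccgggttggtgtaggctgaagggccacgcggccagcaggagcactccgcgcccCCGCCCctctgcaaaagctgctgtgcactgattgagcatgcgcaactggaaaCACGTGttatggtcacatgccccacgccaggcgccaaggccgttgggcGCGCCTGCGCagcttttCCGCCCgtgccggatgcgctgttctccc
Slc25a12: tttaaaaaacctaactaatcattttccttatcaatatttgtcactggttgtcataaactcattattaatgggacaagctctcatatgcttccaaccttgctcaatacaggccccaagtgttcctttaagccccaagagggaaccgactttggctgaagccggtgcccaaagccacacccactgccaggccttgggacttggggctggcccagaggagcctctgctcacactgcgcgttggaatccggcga
Slc25a13: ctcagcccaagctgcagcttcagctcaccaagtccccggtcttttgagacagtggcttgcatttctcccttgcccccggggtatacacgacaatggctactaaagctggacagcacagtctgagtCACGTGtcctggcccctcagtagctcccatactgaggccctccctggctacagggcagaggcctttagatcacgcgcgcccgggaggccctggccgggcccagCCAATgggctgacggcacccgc
Slc25a4 held 1 ETS core and 2 CCAAT boxes, Slc25a5 held 1 E2F core and 1 GC box, and Slc25a31 held 1 NRF1 core, 2 GC boxes and 1 E-box. Slc25a13 held 1 CCAAT box and 1 E-box, while the Slc25a12 window had no match to these letters. No marked run overlaps another. GC content was 64.8% for Slc25a4, 61.6% for Slc25a5, 59.6% for Slc25a31, 62.8% for Slc25a13 and 49.6% for Slc25a12. The median was 52.0% over the first window of each gene in the table, which holds 32851 windows. Windows were found for 34 of the 44 genes, 43 windows in all. The GC box was in 32 of these 43 windows and in 32.7% of all windows, the CCAAT box in 20 and in 33.8%, the E-box in 8 and in 6.02%, the E2F core in 8 and in 16.9%, the ETS core in 6 and in 6.91%, the NRF1 core in 2 and in 4.98%, and TATAAA in 1 and in 12.4%. These are matches of letters, and neither binding nor promoter activity was measured.

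Not all family members were detected. Differences were tested for the 31 carriers that reached a log2 level of 5 on at least 2 arrays, which is 70.5% of the family against 54.6% of all named genes, and 23 carriers were at or above this level on all 12 arrays. In all, 10 carriers were never above a level of 5 on any array: Slc25a2, Slc25a18, Slc25a23, Slc25a27, Slc25a34, Slc25a35, Slc25a37, Slc25a45, Slc25a47 and Slc25a54. The list was the same when any of a gene's probe sets was allowed to count. It made up 22.7% of the family, against 41.9% of all named genes. It includes Slc25a37, the mitoferrin of red blood cell precursors, which at 4.23 on replicate 1 of control day 3.5 came nearest to the level. Slc25a2, the second ornithine carrier, lay between 2.68 and 2.94, and Slc25a54 between 2.48 and 2.61. Another 3 carriers passed 5 on 1 array and were not tested. Slc25a48 did so at day 1.5 only, with 5.64 and 4.98 in control day 1.5 embryos and between 2.997 and 3.79 on the other arrays. One of its other probe sets was above 5 on both control day 1.5 arrays, at 5.10 and 5.49, and the last was at 4.22 and 4.71. Slc25a29, a carrier of basic amino acids, had 5.42 and 3.72 under U0126, and Slc25a42, a coenzyme A carrier, 5.31 and 4.21. Both passed 5 on replicate 1 of U0126 alone. Of the 4 other probe sets of Slc25a29, 2 were high on that array alone, at 6.40 and 5.73, so the U0126 arrays did not repeat each other for this gene.

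Array medians lay between 10.8 and 11.5 on the linear scale, and the number of arrays limits the precision. The stages were set against their markers. All 5 maternal oocyte genes were at or above 5 on both control day 1.5 arrays and fell to control day 2.5, and all 5 trophectoderm genes were above it in the control and released groups from day 2.5 on. Both genes of the 2-cell list on the array were above 5 on both control day 1.5 arrays, but they were also higher in released day 3.5 than in control day 2.5 embryos. Zfp352 was at 9.50 and 9.74 against 6.53 and 4.96, and Tdpoz1 at 6.23 and 7.33 against 4.05 and 4.14. Of 6 oviduct genes only Ovgp1 passed 5, with 6.35 on replicate 2 of U0126 as its highest level. None of the 6 cumulus and granulosa cell genes or 6 sperm genes on the array reached 5 anywhere. Under U0126, 4 of 5 trophectoderm genes were lower and 1 of 5 maternal genes higher than in control day 2.5 embryos. Cd68, a macrophage marker, had a mean of 6.90 under U0126 against 4.47 in control day 2.5 embryos. Ptprc, which defines blood leukocytes, stayed under 3 in all groups. Of the 5 blood and immune cell genes on the array, Cd74 was the one other to pass 5, on 1 control day 3.5 array (5.34). The summed trophectoderm level was 31.0 to 34.7 under U0126 and 42.6 to 45.9 in control day 2.5 embryos, and the summed maternal level 35.2 to 38.5 and 31.4 to 33.6. Of the other lists, 3 of 5 primitive endoderm genes (summed level 30.1 to 32.9 against 36.5 to 37.5) and 2 of 5 pluripotent cell genes (39.5 to 39.9 against 42.6 to 43.1) were lower under U0126, and 1 of 2 genes of the 2-cell list was higher (12.3 to 14.6 against 9.09 to 10.6). Of all tested genes, 9.21% were higher and 4.72% lower under U0126 than in control day 2.5 embryos. After release all 5 trophectoderm genes were higher, 3 of 5 maternal genes lower and Cd68 lower again. Of all tested genes, 13.7% were higher and 14.5% lower at that step. The part of these markers in the carrier differences was not tested. In such whole-embryo RNA, fewer cells of a type and less RNA per cell cannot be told apart.

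In normal development, 19 of the 31 tested carriers changed between control day 1.5 and control day 2.5, 9 higher and 10 lower, with 55.4% of all tested genes changed (28.0% higher, 27.4% lower). Carriers of ADP/ATP (Slc25a4, Slc25a5), ATP-Mg (Slc25a24), acylcarnitine (Slc25a20) and aspartate/glutamate (Slc25a12) rose, while Slc25a13, the other aspartate/glutamate carrier, and the carriers of ornithine (Slc25a15), glycine (Slc25a38) and coenzyme A (Slc25a16) fell. Between control day 2.5 and control day 3.5, 10 carriers changed, 7 higher and 3 lower, with 21.6% of all tested genes changed (13.4% higher, 8.28% lower). Slc25a13 rose again and Slc25a12 fell at this step, and the glutathione carrier Slc25a39 and the oxoglutarate carrier Slc25a11 rose. The median difference over the tested carriers was 0.22 at the first step and 0.05 at the second, against 0.09 at both over all tested genes. The carriers' shares of 61.3% and 32.3% lay somewhat above these backgrounds, which was not tested. Fewer carriers passed at the second step without replicate 1 of control day 2.5 (5) or replicate 1 of control day 3.5 (4).

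Under U0126, 7 carriers differed from control day 2.5 embryos, 5 higher and 2 lower, with 13.9% of all tested genes changed (9.21% higher, 4.72% lower). Slc25a31, Slc25a14, Slc25a28, Slc25a15 and Slc25a30 were higher and Slc25a4 and Slc25a5 were lower. Against the 2-cell embryos of the day before, 17 carriers differed, 10 higher and 7 lower, with 50.1% of all tested genes changed (28.1% higher, 22.0% lower). Without replicate 1 of control day 2.5, or without replicate 2 of control day 2.5, 3 carriers passed against control day 2.5. When only the arrays of these 2 groups entered the fit, 0 carriers and 0 of all genes passed in limma, with 11 carriers at an unadjusted p under 0.05. The same restriction left 11 of the 17 differences from 2-cell embryos. The medians over the tested carriers were 0.15 and 0.41, against 0.11 and 0.18 over all tested genes. The call rule was a Benjamini-Hochberg adjusted p under 0.05 from limma over all 9930 tested genes. The p-values rest on the spread between arrays of the same group, estimated for each gene over all 6 groups and not over the compared groups alone.

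On the first day after release, 11 carriers differed from the arrested embryos, 5 higher and 6 lower, with 28.2% of all tested genes changed (13.7% higher, 14.5% lower). Slc25a13, Slc25a39, Slc25a4, Slc25a5 and Slc25a11 rose, and Slc25a28, Slc25a15, Slc25a30, Slc25a12, Slc25a31 and Slc25a44 fell. Control day 2.5 embryos have a similar cell number to released day 3.5 embryos. Their summed trophectoderm level was lower, 42.6 to 45.9 against 55.1 to 55.9. Released embryos differed from these controls in 8 carriers, 6 higher and 2 lower, with 12.7% of all tested genes changed (8.61% higher, 4.05% lower). These became 2 without replicate 1 of control day 2.5, replicate 2 of control day 2.5 or replicate 2 of released day 3.5, 4 without replicate 1 of released day 3.5, and 5 with only the arrays compared in the fit. From released day 3.5 to released day 4.5, 5 carriers changed, 2 higher and 3 lower, with 13.7% of all tested genes changed (7.37% higher, 6.37% lower), and 9 did with the replicate number as a block, 3 without replicate 1 of released day 3.5 and 2 without replicate 2 of released day 4.5. Against control day 3.5 embryos, 4 carriers were lower in released day 4.5 embryos, with 5.88% of all tested genes changed (3.85% higher, 2.03% lower). Those were Slc25a41, Slc25a33, Slc25a20 and Slc25a12. The count was 0 in limma without replicate 2 of control day 3.5 or replicate 1 of released day 4.5, with 7 and 9 carriers at an unadjusted p under 0.05, 1 without replicate 2 of released day 4.5, and 6 with the replicate block. Only the arrays compared in the fit left 7 of the 11 calls on the first day after release. Medians over the tested carriers were -0.13, 0.12, 0.01 and 0.10 in these 4 comparisons, against -0.02, 0.09, -0.04 and -0.03 over all tested genes. Comparisons with a common group share its arrays, so their values are not independent of each other.

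Centring each array on its median moved the median difference over all genes by over 0.1 in 5 comparisons: from 0.09 to -0.12 between control day 2.5 and 3.5, from 0.11 to -0.09 for U0126 against control day 2.5, from 0.18 to 0.02 for U0126 against control day 1.5, from 0.09 to -0.11 for released day 3.5 against control day 2.5, and from -0.13 to 0.04 for the difference between the last steps. The carriers then divided into 5 higher and 4 lower, 4 higher and 3 lower, 8 higher and 7 lower, and 3 higher and 2 lower in the first 4 of these, and 1 carrier passed in the last. The split over all genes moved too, from 1326 higher of 2148 called to 963 of 2123 between control day 2.5 and 3.5, from 915 of 1384 to 553 of 1177 for U0126 against control day 2.5, and from 855 of 1257 to 607 of 1193 for released day 3.5 against control day 2.5. No called carrier changed sign under this centring, and 9 calls were lost: Slc25a31 (adjusted p = 0.101 in limma) and Slc25a33 (0.118) between control day 2.5 and 3.5, Slc25a15 under U0126 against control day 2.5 (0.0889), Slc25a3 (0.0766) and Slc25a51 (0.102) against control day 1.5, Slc25a11 (0.0517), Slc25a14 (0.171) and Slc25a31 (0.0831) for released day 3.5 against control day 2.5, and Slc25a33 for the difference between the last steps (0.0655).

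**Figure D1:**
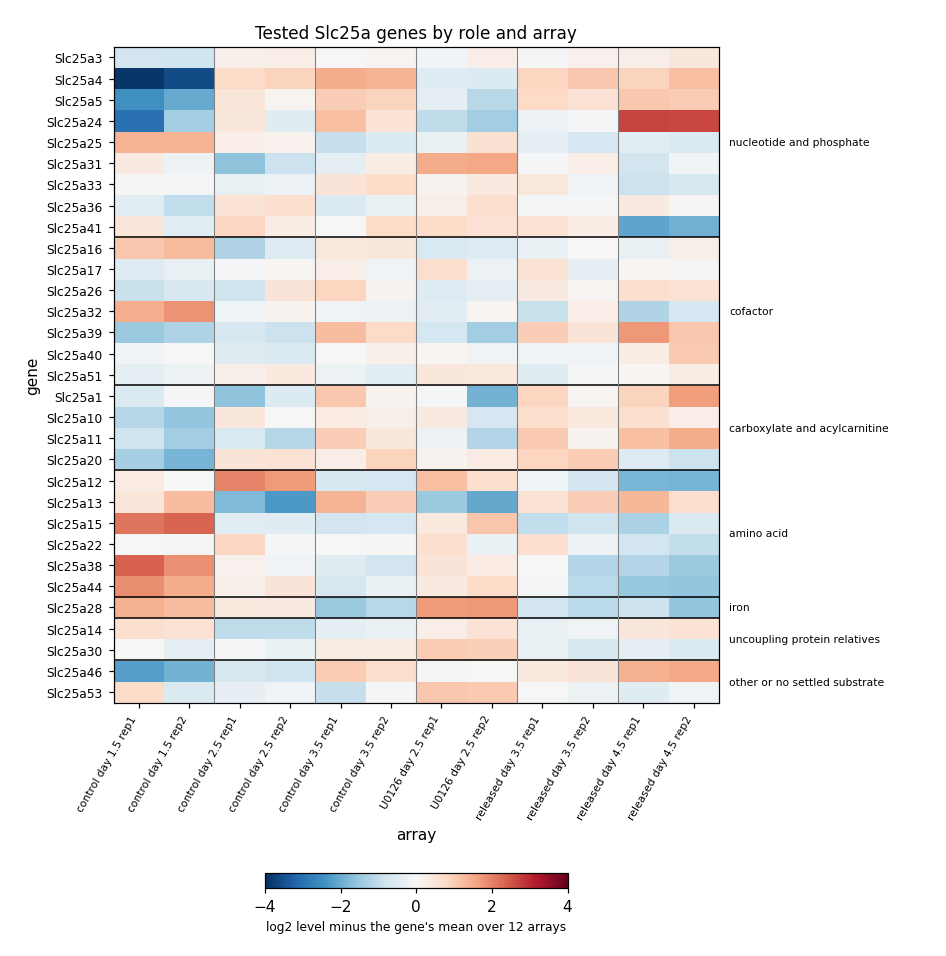
Levels of the 31 tested Slc25a genes (rows, grouped by role) on the 12 arrays (columns), as the log2 level minus the gene's mean over all arrays, red above and blue below the mean. The control day 1.5 columns stand apart from the later ones, with Slc25a4 and Slc25a5 low and Slc25a15 and Slc25a38 high, and Slc25a12 and Slc25a13 take opposite colours in control day 2.5 embryos.

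Of the ADP/ATP carriers, Slc25a4 and Slc25a5 rose with development and were low under U0126, and Slc25a31 was high there. Slc25a4, the carrier typical of heart and muscle, was at 7.60 and 7.92 in control day 1.5, 12.28 and 12.40 in control day 2.5, 12.98 and 12.86 in control day 3.5, 10.998 and 10.95 in U0126, 12.36 and 12.60 in released day 3.5 and 12.40 and 12.69 in released day 4.5 embryos. Both 2-cell arrays lay far below all others, and both U0126 arrays lay between the 2-cell and the other arrays. The rise to control day 2.5 was 4.58 ± 0.25 (log2 difference ± standard error, a 24.0-fold change; adjusted p = 3.15e-07 in limma). U0126 embryos differed by -1.36 ± 0.25 from control day 2.5 embryos (adjusted p = 0.00688 in limma) and by 3.22 ± 0.25 from 2-cell embryos (adjusted p = 4.79e-06). After release Slc25a4 rose by 1.50 ± 0.25 (adjusted p = 0.00167 in limma). Of its 3 other probe sets, 2 gave 4.33 and 4.24 at the first step, and -1.33 and -1.23 under U0126, where neither passed among 16572 probe sets (adjusted p = 0.0865 and 0.0673 in limma). The last of them stayed under 5 on all arrays, at most 3.77.

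Slc25a5, the ADP/ATP carrier of dividing cells, was at 10.49 and 10.96 in control day 1.5, 13.45 and 13.07 in control day 2.5, 13.94 and 13.85 in control day 3.5, 12.59 and 11.85 in U0126, 13.76 and 13.54 in released day 3.5 and 14.02 and 13.96 in released day 4.5 embryos. The U0126 arrays again lay above the 2-cell arrays and below all later ones. The gene rose by 2.54 ± 0.31 from control day 1.5 to control day 2.5 (adjusted p = 5.19e-05 in limma), and differed by -1.04 ± 0.31 under U0126 (adjusted p = 0.0471) and by 1.43 ± 0.31 after release (adjusted p = 0.00650). The U0126 call was lost without replicate 1 of control day 2.5 (adjusted p = 0.243 in limma), replicate 2 of control day 2.5 (0.0946) or replicate 2 of U0126 (0.209). The probe set used has the suffix of those whose probes can match other sequences. The 7 other probe sets of the gene gave U0126 differences of -1.16 to -2.53, and 6 of these 7 passed when all 16572 probe sets were tested, where the probe set used did not (adjusted p = 0.0546 in limma). The one without that suffix that differed most had group means of 5.07, 8.43 and 9.26 in control embryos at day 1.5, 2.5 and 3.5, and 5.91 under U0126 (a difference of -2.53 ± 0.36, adjusted p = 0.00288 in limma).

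Slc25a31, the ADP/ATP carrier known from germ cells, had its highest levels under U0126. Its levels were 9.35 and 8.78 in control day 1.5, 7.37 and 8.14 in control day 2.5, 8.59 and 9.30 in control day 3.5, 10.47 and 10.54 in U0126, 8.95 and 9.26 in released day 3.5 and 8.25 and 8.89 in released day 4.5 embryos. Both U0126 arrays lay above the 10 others, and both control day 2.5 arrays lay below all others. Among the remaining groups, only released day 3.5 and released day 4.5 embryos did not overlap. U0126 embryos exceeded control day 2.5 embryos by 2.75 ± 0.37 (6.71-fold; adjusted p = 0.00206 in limma) and 2-cell embryos by 1.43 ± 0.37 (adjusted p = 0.00872). The level fell by 1.39 ± 0.37 after release (adjusted p = 0.0193 in limma), and released day 3.5 embryos stayed above control day 2.5 embryos by 1.35 ± 0.37 (adjusted p = 0.0401). In control embryos it fell by 1.31 ± 0.37 and then rose by 1.19 ± 0.37 (adjusted p = 0.0119 and 0.0449 in limma). The excess over control day 2.5 under U0126 kept its call without any 1 array, and the other calls did not. The fall after release was lost without any 1 of its 4 arrays (adjusted p = 0.0536 to 0.102 in limma), and so was the released day 3.5 excess (0.0616 to 0.230). The difference from 2-cell embryos was lost without replicate 2 of control day 1.5 (0.0695), the first control step without replicate 1 of control day 1.5 (0.0852) or replicate 1 of control day 2.5 (0.111), and the second without replicate 1 of control day 2.5 (0.268), replicate 1 of control day 3.5 (0.0711) or replicate 2 of control day 3.5 (0.234).

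Slc25a3, the phosphate carrier, varied least of these 4. It was at 12.55 and 12.49 in control day 1.5, 13.47 and 13.54 in control day 2.5, 13.24 and 13.38 in control day 3.5, 13.16 and 13.52 in U0126, 13.19 and 13.45 in released day 3.5 and 13.50 and 13.74 in released day 4.5 embryos. The 2-cell arrays were the only ones under 13. It rose by 0.99 ± 0.25 at the first step (adjusted p = 0.00582 in limma) and was 0.82 ± 0.25 above 2-cell embryos under U0126 (adjusted p = 0.0180), a call lost without replicate 2 of control day 1.5 (0.0586) or replicate 2 of U0126 (0.0948). The difference between U0126 and control day 2.5 embryos was -0.17 ± 0.25 (adjusted p = 0.726 in limma). With the mean of its probe sets, the difference between U0126 and 2-cell embryos was 0.005 (adjusted p = 0.988 in limma), and its other probe set had 5.08 as its highest level.

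**Figure D2:**
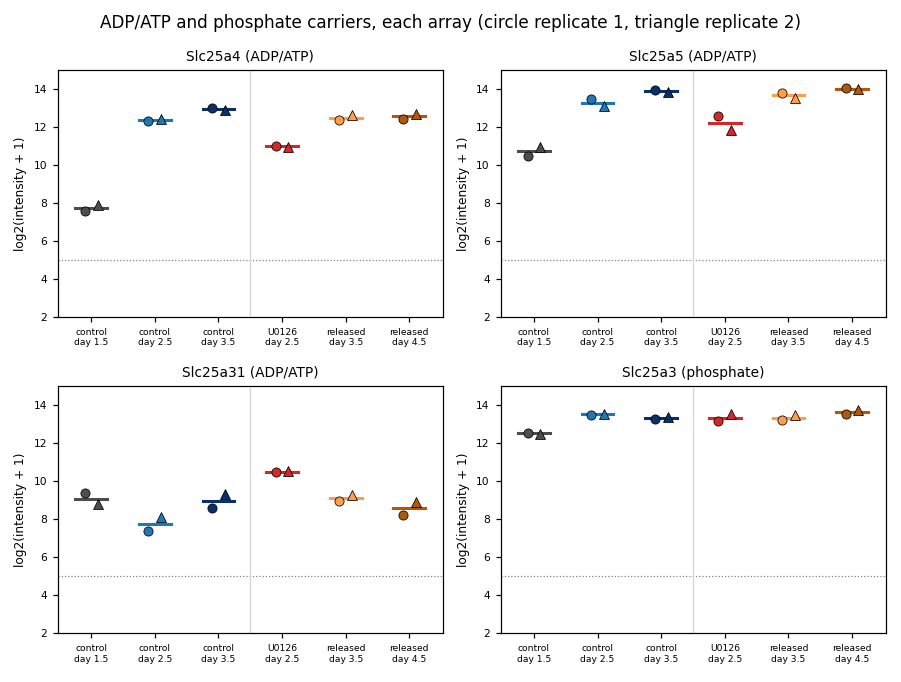
Levels of the ADP/ATP carriers Slc25a4, Slc25a5 and Slc25a31 and of the phosphate carrier Slc25a3, as log2(intensity + 1), on each array of the 6 groups; circles are replicate 1, triangles replicate 2, bars the group mean, and the dotted line the level of 5. In U0126 embryos Slc25a4 and Slc25a5 sit between the 2-cell and the day 2.5 controls, Slc25a31 sits above every other array, and Slc25a3 overlaps the day 2.5 controls.

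The ATP-Mg/phosphate carriers, which adjust the adenine nucleotide pool of the matrix, diverged in released day 4.5 embryos. Slc25a24 was at 2.96 and 4.58 in control day 1.5, 6.41 and 5.48 in control day 2.5, 7.16 and 6.52 in control day 3.5, 4.93 and 4.57 in U0126, 5.72 and 5.88 in released day 3.5 and 8.65 and 8.61 in released day 4.5 embryos. Control day 1.5 and U0126 embryos were under 5 on both arrays, and the released day 4.5 arrays were above all others. It rose by 2.17 ± 0.49 from control day 1.5 to control day 2.5 (adjusted p = 0.00319 in limma; at least 0.94 counted from a level of 5) and by 2.83 ± 0.49 from released day 3.5 to day 4.5 (7.11-fold; adjusted p = 0.00537). Its difference between released day 4.5 and control day 3.5 embryos was 1.79 ± 0.49 (adjusted p = 0.0594 in limma). The other probe set of Slc25a24 stayed under 5 on all arrays, at most 3.75, so these changes rest on the probe set used.

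Slc25a41, a carrier of the same substrates, went the other way at that step. Its levels were 5.91 and 4.98 in control day 1.5, 6.25 and 5.73 in control day 2.5, 5.42 and 6.18 in control day 3.5, 6.17 and 6.01 in U0126, 5.996 and 5.74 in released day 3.5 and 3.32 and 3.50 in released day 4.5 embryos. The released day 4.5 arrays were the only pair under 5. They lay -2.39 ± 0.37 from control day 3.5 (adjusted p = 0.00572 in limma) and -2.46 ± 0.37 from released day 3.5 embryos (adjusted p = 0.00264), or -0.80 and -0.87 or lower counted from a level of 5. The first call was lost without replicate 2 of control day 3.5 (adjusted p = 0.0781 in limma) or replicate 1 of released day 4.5 (0.0508). Slc25a25, the third detected carrier of this kind, was at 6.98 and 7.03 in control day 1.5, 5.90 and 5.81 in control day 2.5, 4.70 and 5.09 in control day 3.5 and 5.34 and 6.24 in U0126 embryos. It fell by 1.15 ± 0.32 at the first step (adjusted p = 0.00967 in limma) and was -1.22 ± 0.32 from 2-cell embryos under U0126 (adjusted p = 0.00831, and 0.0702 without replicate 1 of U0126). With the mean of its probe sets these were -0.36 and -0.43 (adjusted p = 0.196 and 0.134 in limma). The probe set used has the suffix of those whose probes can match other sequences. Another, without that suffix, had means of 5.997 in control day 1.5, 5.98 in control day 2.5 and 5.90 in U0126 embryos. These means hardly differed, though its 2-cell arrays lay apart, at 6.73 and 5.26. Its control day 3.5 mean was lower, at 4.495. The last probe set stayed under 5, at most 3.30. With the probe set used, the second control step of Slc25a25, -0.96 ± 0.32, passed with the replicate number as a block only (adjusted p = 0.0517 without and 0.0355 with the block, in limma).

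The carriers of pyrimidine nucleotides, which feed mitochondrial DNA and RNA synthesis, were Slc25a33 and Slc25a36. Slc25a33 was at 6.74 and 6.79 in control day 2.5, 7.54 and 7.77 in control day 3.5, 7.45 and 6.86 in released day 3.5 and 6.15 and 6.38 in released day 4.5 embryos. It was high at the end of normal development and low at the end of release, with no overlap. The control step was 0.89 ± 0.27 (adjusted p = 0.0384 in limma) and the released step -0.89 ± 0.27 (adjusted p = 0.0515, and 0.0333 with the replicate block). Released day 4.5 embryos differed from control day 3.5 embryos by -1.39 ± 0.27 (adjusted p = 0.0150 in limma). The released step minus the control step was -1.78 ± 0.38 (adjusted p = 0.0396 in limma). This last difference passed with all arrays only: leaving out any 1 of its 8 arrays gave adjusted p from 0.0514 to 0.132. The control step was lost without any of its 4 arrays (0.116 to 0.156), and the difference at the end without replicate 2 of control day 3.5 (0.159), replicate 1 of released day 4.5 (0.112) or replicate 2 of released day 4.5 (0.0771).

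Slc25a36 was at 10.41 and 9.87 in control day 1.5, 11.41 and 11.55 in control day 2.5, 10.28 and 10.58 in control day 3.5 and 11.11 and 11.52 in U0126 embryos. It was high at control day 2.5 and, against 2-cell embryos, under U0126. It rose by 1.34 ± 0.28, fell by 1.05 ± 0.28 in the control steps (adjusted p = 0.00214 and 0.0246 in limma) and stood 1.18 ± 0.28 above 2-cell embryos under U0126 (adjusted p = 0.00552). The second step was lost without replicate 1 of control day 2.5 (adjusted p = 0.0822), replicate 2 of control day 2.5 (0.119) or replicate 1 of control day 3.5 (0.169). Probe sets of this gene disagreed: one of the 2 others gave -0.06 ± 0.33 at the first step and 1.26 ± 0.33 for U0126 against control day 2.5 (adjusted p = 0.888 and 0.0312 in limma), where the one used gave -0.16 ± 0.28, and the last gave 2.55 ± 0.47 and -0.48 ± 0.47.

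Among the 6 tested amino acid carriers, 1 rose and 4 fell between control day 1.5 and 2.5, with 28.0% of all tested genes higher and 27.4% lower. The clearest pattern was an exchange between the aspartate/glutamate carriers of the malate-aspartate shuttle. Slc25a12 was at 8.93 and 8.62 in control day 1.5, 10.57 and 10.30 in control day 2.5, 7.95 and 7.90 in control day 3.5, 9.80 and 9.27 in U0126, 8.43 and 7.82 in released day 3.5 and 6.76 and 6.74 in released day 4.5 embryos. Slc25a13 was at 7.91 and 8.66, 5.67 and 5.14, 8.79 and 8.43, 5.95 and 5.38, 7.997 and 8.40 and 8.76 and 8.10 in the same order. Control day 2.5 embryos had the highest Slc25a12 and the lowest Slc25a13 levels. U0126 embryos overlapped them in Slc25a13. In Slc25a12 the U0126 mean of 9.54 lay between 10.44 in control day 2.5 and 8.78 in 2-cell embryos. Slc25a12 rose by 1.66 ± 0.30 and fell by 2.51 ± 0.30 over the control steps (adjusted p = 0.000728 and 0.000577 in limma). Slc25a13 fell by 2.88 ± 0.37 and rose by 3.21 ± 0.37 over the same steps (adjusted p = 8.08e-05 and 0.000541 in limma), or 7.37-fold down and 9.24-fold up.

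U0126 embryos differed from control day 2.5 embryos by -0.90 ± 0.30 in Slc25a12 (adjusted p = 0.0712 in limma, and 0.0233 with the replicate block) and by 0.26 ± 0.37 in Slc25a13 (adjusted p = 0.715). Against 2-cell embryos, Slc25a13 differed by -2.62 ± 0.37 under U0126 (adjusted p = 0.000211 in limma), and Slc25a12 by 0.76 ± 0.30 (adjusted p = 0.0529, and 0.0169 with the block). After release Slc25a12 fell by 1.41 ± 0.30 and Slc25a13 rose by 2.54 ± 0.37 (adjusted p = 0.00583 and 0.000978 in limma). The released 8-cell embryos thus stood -2.31 ± 0.30 and 2.80 ± 0.37 from control day 2.5 embryos (adjusted p = 0.00181 and 0.00209 in limma). Slc25a12 fell further to released day 4.5, by 1.38 ± 0.30, and ended -1.18 ± 0.30 from control day 3.5 embryos (adjusted p = 0.0136 and 0.0435 in limma). The Slc25a12 call after release was lost without replicate 2 of released day 3.5 (adjusted p = 0.0565 in limma). Its last step was lost without replicate 1 of released day 3.5 (0.118), replicate 1 of released day 4.5 (0.0666) or replicate 2 of released day 4.5 (0.0928), and its difference at the end without any of the 4 arrays (0.132 to 0.252). With the mean of its probe sets, these 3 differences of Slc25a12 were -0.41, -0.51 and -0.45 (adjusted p = 0.160, 0.124 and 0.237 in limma). The 2 other probe sets of this gene were under 5 on all arrays, at most 4.24.

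For Slc25a13 the steps at the end of development differed between release and normal development. It rose by 3.21 ± 0.37 between control day 2.5 and 3.5, and its difference between released day 3.5 and 4.5 was 0.23 ± 0.37. The released and control steps started from unlike levels. The mean was 8.20 in released day 3.5, 8.61 in control day 3.5 and 5.40 in control day 2.5 embryos. Summed trophectoderm levels in these groups were 55.1 to 55.9, 55.1 to 58.5 and 42.6 to 45.9. The released step minus the control step was -2.97 ± 0.53 (adjusted p = 0.0204 in limma). This was 1 of 2 carriers to pass in that comparison, with Slc25a33, both lower, when 2.34% of all tested genes did (1.02% higher, 1.32% lower). Leaving out any 1 of the 8 arrays left 0 or 1 carrier, and the median was -0.28 over the tested carriers and -0.13 over all tested genes. With the replicate block 4 carriers passed, Slc25a20 and Slc25a41 in addition (adjusted p = 0.0459 and 0.0345; 0.0696 and 0.0522 without the block, in limma). Of the marker lists, 2 of 5 primitive endoderm genes were higher in this comparison and from released day 3.5 to 4.5, Sox17 going from 3.11 and 4.19 to 6.998 and 7.87 and Pdgfra from 5.04 and 5.73 to 8.30 and 9.38, and 1 of 5 pluripotent cell genes was lower in this comparison. Their part in the carrier differences was not tested. The Slc25a13 call was lost without replicate 2 of control day 2.5 (adjusted p = 0.0829), replicate 1 of control day 3.5 (0.0628), replicate 2 of control day 3.5 (0.0617), replicate 2 of released day 3.5 (0.0755) or replicate 2 of released day 4.5 (0.0985).

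**Figure D3:**
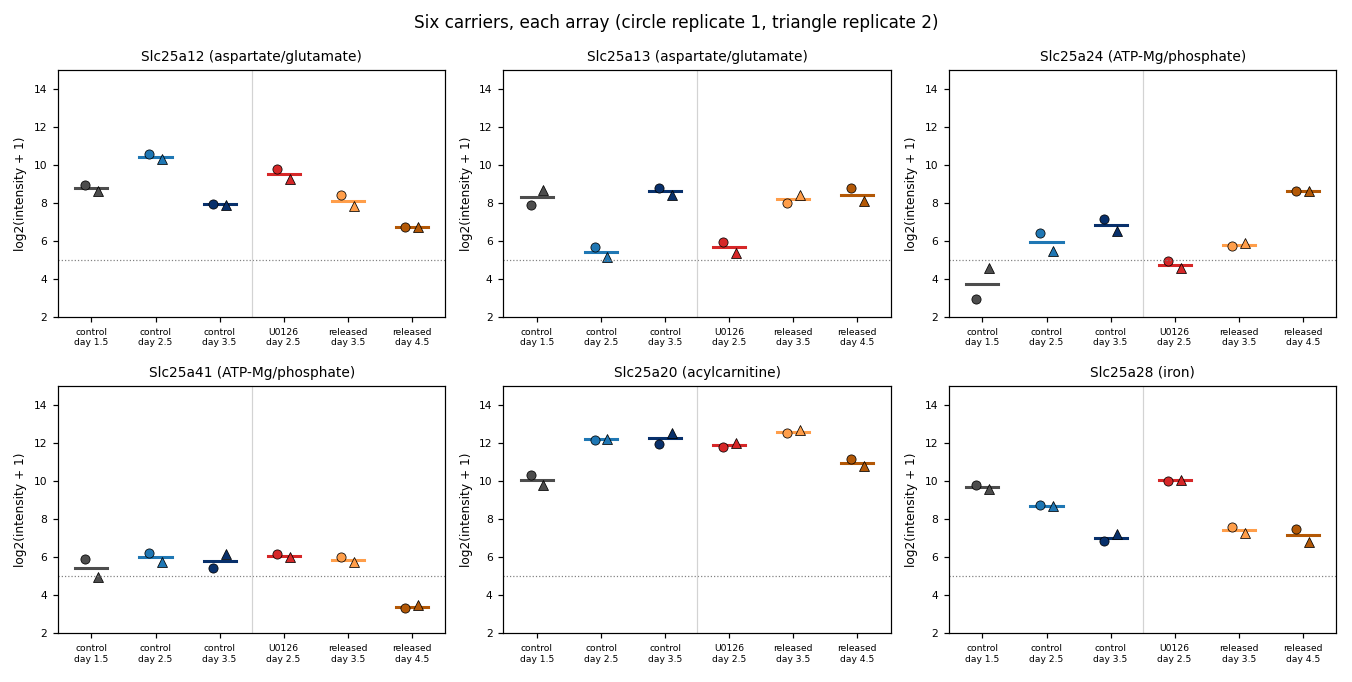
Levels of Slc25a12, Slc25a13, Slc25a24, Slc25a41, Slc25a20 and Slc25a28, as log2(intensity + 1), on each array of the 6 groups; circles are replicate 1, triangles replicate 2, bars the group mean, and the dotted line the level of 5. Slc25a12 peaks in control day 2.5 embryos, with U0126 embryos between these and 2-cell embryos. Slc25a13 dips in control day 2.5 and U0126 embryos. Slc25a24 is highest and Slc25a41 lowest in released day 4.5 embryos, and Slc25a28 is highest under U0126.

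Of the other amino acid carriers, 3 were highest at the 2-cell stage. Slc25a15, the ornithine carrier of the urea cycle, was at 11.28 and 11.47 in control day 1.5, 8.67 and 8.66 in control day 2.5, 8.41 and 8.44 in control day 3.5, 9.51 and 10.24 in U0126, 8.13 and 8.34 in released day 3.5 and 7.87 and 8.55 in released day 4.5 embryos. U0126 embryos lay between the 2-cell arrays and all others, without overlap. The fall to control day 2.5 was -2.71 ± 0.31 (adjusted p = 3.95e-05 in limma), U0126 embryos were 1.21 ± 0.31 above control day 2.5 and -1.50 ± 0.31 from 2-cell embryos (adjusted p = 0.0302 and 0.00259), and the level fell by 1.64 ± 0.31 after release (adjusted p = 0.00369 in limma). The U0126 call against control day 2.5 was lost without replicate 1 of control day 2.5 (adjusted p = 0.125 in limma), replicate 2 of control day 2.5 (0.119) or replicate 2 of U0126 (0.133).

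Slc25a38, the glycine carrier needed for heme synthesis, was at 9.80 and 9.27 in control day 1.5, 7.61 and 7.31 in control day 2.5, 6.96 and 6.67 in control day 3.5, 7.96 and 7.77 in U0126, 7.42 and 6.27 in released day 3.5 and 6.28 and 5.97 in released day 4.5 embryos. It was highest in 2-cell embryos and fell by 2.07 ± 0.37 to control day 2.5 (adjusted p = 0.000757 in limma), and U0126 embryos stood -1.67 ± 0.37 from 2-cell embryos (adjusted p = 0.00360). The step after release was -1.02 ± 0.37 (adjusted p = 0.0644 in limma, and 0.0149 with the replicate block). Slc25a44, the carrier of branched-chain amino acids, was at 10.39 and 10.02 in control day 1.5, 8.74 and 9.03 in control day 2.5, 8.87 and 9.26 in U0126 and 8.44 and 7.43 in released day 3.5 embryos. It too was highest in 2-cell embryos. Its differences were -1.32 ± 0.35 at the first step, -1.14 ± 0.35 for U0126 against 2-cell embryos and -1.13 ± 0.35 after release (adjusted p = 0.00782, 0.0194 and 0.0347 in limma). These were lost, in this order, without replicate 1 of control day 1.5 (0.0523) or replicate 1 of control day 2.5 (0.0540), without replicate 1 of control day 1.5 (0.0992) or replicate 1 of U0126 (0.105), and without replicate 2 of U0126 (0.147) or replicate 2 of released day 3.5 (0.256). Slc25a22, a glutamate carrier, lay between 4.31 and 6.14 and passed in no comparison; its last released step of -1.13 ± 0.41 had an adjusted p of 0.0928 in limma, and 0.0321 with the replicate block, and is -0.55 or lower counted from a level of 5.

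Of the 4 tested carboxylate and acylcarnitine carriers, 2 rose at the first control step and 1 at the second, when 28.0% and 13.4% of all tested genes were higher. Between U0126 and control day 2.5 embryos 0 of the 4 passed, with 13.9% of all tested genes changed, a share too low for this 0 to set these 4 apart. Slc25a20, which brings acylcarnitines in for fatty acid oxidation, was at 10.34 and 9.81 in control day 1.5, 12.16 and 12.23 in control day 2.5, 11.94 and 12.55 in control day 3.5, 11.79 and 11.98 in U0126, 12.52 and 12.67 in released day 3.5 and 11.16 and 10.79 in released day 4.5 embryos. The 2-cell and the released day 4.5 arrays were the low ones. It rose by 2.12 ± 0.30 at the first control step and stood 1.81 ± 0.30 above 2-cell embryos under U0126 (adjusted p = 0.000146 and 0.000561 in limma). At released day 4.5 it was -1.62 ± 0.30 from released day 3.5 and -1.27 ± 0.30 from control day 3.5 embryos (adjusted p = 0.00704 and 0.0347 in limma). The first of these was lost without replicate 2 of released day 4.5 (adjusted p = 0.0723), and the second without replicate 2 of control day 3.5 (0.322), replicate 1 of released day 4.5 (0.0978) or replicate 2 of released day 4.5 (0.232).

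Slc25a10, the dicarboxylate carrier, was at 6.16 and 5.71 in control day 1.5, 7.76 and 7.32 in control day 2.5, 7.66 and 6.61 in U0126 and 8.01 and 7.70 in released day 3.5 embryos. Only the 2-cell arrays lay apart. It rose by 1.61 ± 0.36 at the first step (adjusted p = 0.00316 in limma) and stood 1.20 ± 0.36 above 2-cell embryos under U0126 (adjusted p = 0.0178), which was lost without replicate 2 of control day 1.5 (0.109) or replicate 1 of U0126 (0.151). Its step after release was 0.72 ± 0.36 (adjusted p = 0.164 in limma, and 0.0497 with the replicate block). Slc25a11, the oxoglutarate/malate carrier, was at 4.89 and 4.32 in control day 1.5, 5.10 and 4.56 in control day 2.5, 6.69 and 6.15 in control day 3.5, 5.51 and 4.52 in U0126, 6.75 and 5.84 in released day 3.5 and 6.89 and 7.20 in released day 4.5 embryos. Replicate 1 exceeded replicate 2 in all groups but the last. The gene rose by 1.60 ± 0.43 between control day 2.5 and 3.5, by 1.28 ± 0.43 after release, and was 1.46 ± 0.43 higher in released day 3.5 than in control day 2.5 embryos (adjusted p = 0.0239, 0.0466 and 0.0484 in limma). All of these were near the threshold. The first was lost without replicate 1 of control day 2.5 (0.0513), replicate 2 of control day 2.5 (0.139) or replicate 1 of control day 3.5 (0.173), the second without replicate 2 of U0126 (0.260) or replicate 1 of released day 3.5 (0.276), and the last without any of its 4 arrays (0.0684 to 0.255). Slc25a1, the citrate carrier, spread from 6.29 and 4.46 in U0126 to 7.24 and 8.01 in released day 4.5 embryos and passed in no comparison, with standard errors of 0.61.

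Of the 7 tested cofactor carriers, 2 fell at the first control step and 2 rose at the second, with 27.4% of all tested genes lower and 13.4% higher at these steps. Slc25a16, linked to coenzyme A, was at 10.18 and 10.35 in control day 1.5, 7.88 and 8.58 in control day 2.5, 9.50 and 9.54 in control day 3.5, 8.47 and 8.59 in U0126, 8.83 and 9.09 in released day 3.5 and 8.80 and 9.34 in released day 4.5 embryos. It was highest in 2-cell embryos, fell by 2.03 ± 0.30 and then rose by 1.29 ± 0.30 in controls (adjusted p = 0.000206 and 0.0135 in limma), and stood -1.74 ± 0.30 from 2-cell embryos under U0126 (adjusted p = 0.000772). The rise was lost without replicate 1 of control day 2.5 (0.107), replicate 1 of control day 3.5 (0.0798) or replicate 2 of control day 3.5 (0.0558). Slc25a32, the folate and FAD carrier, was at 8.75 and 9.07 in control day 1.5, 7.12 and 7.42 in control day 2.5 and 6.85 and 7.38 in U0126 embryos, and between 6.10 and 7.56 on the other arrays. It fell by 1.64 ± 0.39 at the first step, and U0126 embryos stood -1.80 ± 0.39 from 2-cell embryos (adjusted p = 0.00408 and 0.00293 in limma).

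Slc25a39, which brings glutathione into the matrix, was at 9.65 and 9.91 in control day 1.5, 10.50 and 10.28 in control day 2.5, 12.38 and 11.92 in control day 3.5, 10.46 and 9.76 in U0126, 12.14 and 11.66 in released day 3.5 and 12.87 and 12.23 in released day 4.5 embryos. All arrays from control day 3.5 and from released embryos were above all others. It rose by 1.76 ± 0.34 between control day 2.5 and 3.5 and by 1.79 ± 0.34 after release, when it was 1.51 ± 0.34 above control day 2.5 embryos (adjusted p = 0.00573, 0.00363 and 0.0189 in limma). The control step was lost without replicate 1 of control day 3.5 (0.0654) and the last difference without any of its 4 arrays (0.0615 to 0.113). Its 3 other tested probe sets gave 1.98, 2.25 and 1.82 at the control step. Slc25a40, its close relative, lay between 7.06 and 8.68. It passed in no comparison without the replicate block, and with it at the last released step (0.83 ± 0.28, adjusted p = 0.0486 in limma).

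Slc25a51, the NAD carrier, was at 8.16 and 8.33 in control day 1.5, 8.76 and 8.93 in control day 2.5, 8.999 and 8.98 in U0126 and 8.06 and 8.48 in released day 3.5 embryos. U0126 embryos stood 0.74 ± 0.26 above 2-cell embryos (adjusted p = 0.0321 in limma), which was lost without any of the 4 arrays (0.0539 to 0.105). One of its other probe sets gave -0.32 ± 0.37 in this comparison and -1.26 ± 0.37 at the first control step (adjusted p = 0.501 and 0.0135 in limma), where the one used gave 0.60 ± 0.26. With the replicate block that step and the one after release (-0.72 ± 0.26) passed for the probe set used (adjusted p = 0.0419 and 0.0321 in limma). Slc25a17, a peroxisomal carrier of cofactors, lay between 5.86 and 7.08, and Slc25a26, the S-adenosylmethionine carrier, between 5.42 and 7.17. Neither passed in any comparison.

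Slc25a28, the iron carrier mitoferrin of most tissues, had its highest level in the arrested embryos and its lowest in the later groups. It was at 9.77 and 9.59 in control day 1.5, 8.74 and 8.69 in control day 2.5, 6.85 and 7.22 in control day 3.5, 10.03 and 10.07 in U0126, 7.59 and 7.26 in released day 3.5 and 7.49 and 6.81 in released day 4.5 embryos. The U0126 arrays were above all others, and the control day 3.5 and released arrays were below all others. It fell by 0.97 ± 0.29 and by 1.68 ± 0.29 in controls (adjusted p = 0.0150 and 0.00318 in limma). U0126 embryos were 1.33 ± 0.29 above control day 2.5 embryos (adjusted p = 0.0140 in limma). They stood 0.37 above 2-cell embryos, which did not pass. After release it fell by 2.63 ± 0.29, to -1.29 ± 0.29 from control day 2.5 embryos (adjusted p = 0.000225 and 0.0176 in limma). The first control step was lost without replicate 1 of control day 1.5 (0.0656), replicate 1 of control day 2.5 (0.0561) or replicate 2 of control day 2.5 (0.0645). The U0126 call was lost without replicate 1 of control day 2.5 (0.0755), replicate 2 of control day 2.5 (0.0728) or replicate 1 of U0126 (0.0501), and the last one without replicate 1 of control day 2.5 (0.0822), replicate 2 of control day 2.5 (0.0858) or replicate 2 of released day 3.5 (0.123).

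Both tested relatives of the uncoupling proteins were higher under U0126 than in control day 2.5 embryos, as were 9.21% of all tested genes. Slc25a14 was at 9.24 and 9.16 in control day 1.5, 7.55 and 7.56 in control day 2.5, 8.22 and 8.30 in control day 3.5, 8.84 and 9.16 in U0126, 8.29 and 8.42 in released day 3.5 and 9.02 and 9.13 in released day 4.5 embryos. Control day 2.5 embryos were below all other groups. The fall to them was -1.65 ± 0.23, the U0126 excess 1.45 ± 0.23 and that of released day 3.5 embryos 0.80 ± 0.23 (adjusted p = 0.000160, 0.00422 and 0.0488 in limma), the last lost without any of its 4 arrays (0.130 to 0.209). With the replicate block Slc25a14 also passed at the second control step (0.70 ± 0.23), after release (-0.64 ± 0.23), at the last released step (0.72 ± 0.23) and between the groups at the end (0.82 ± 0.23), with adjusted p of 0.0267, 0.0316, 0.0322 and 0.0337 in limma.

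Slc25a30 was at 5.29 and 4.92 in control day 1.5, 5.19 and 4.99 in control day 2.5, 5.55 and 5.56 in control day 3.5, 6.28 and 6.23 in U0126, 4.98 and 4.62 in released day 3.5 and 4.90 and 4.71 in released day 4.5 embryos. Only the U0126 arrays were above 6. They were 1.16 ± 0.25 above control day 2.5 and 1.15 ± 0.25 above 2-cell embryos (adjusted p = 0.0144 and 0.00352 in limma), and after release the level fell by 1.46 ± 0.25 (adjusted p = 0.00227; -1.25 or lower counted from a level of 5). The U0126 call against control day 2.5 was lost without replicate 1 of control day 2.5 (0.0639), replicate 2 of control day 2.5 (0.0900) or replicate 1 of U0126 (0.0556). Its other tested probe set gave 0.62 ± 0.29 there (adjusted p = 0.201 in limma). The difference between the groups at the end, -0.75 ± 0.25, passed with the replicate block only (adjusted p = 0.0489 in limma; -0.56 or lower counted from a level of 5).

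**Figure D4:**
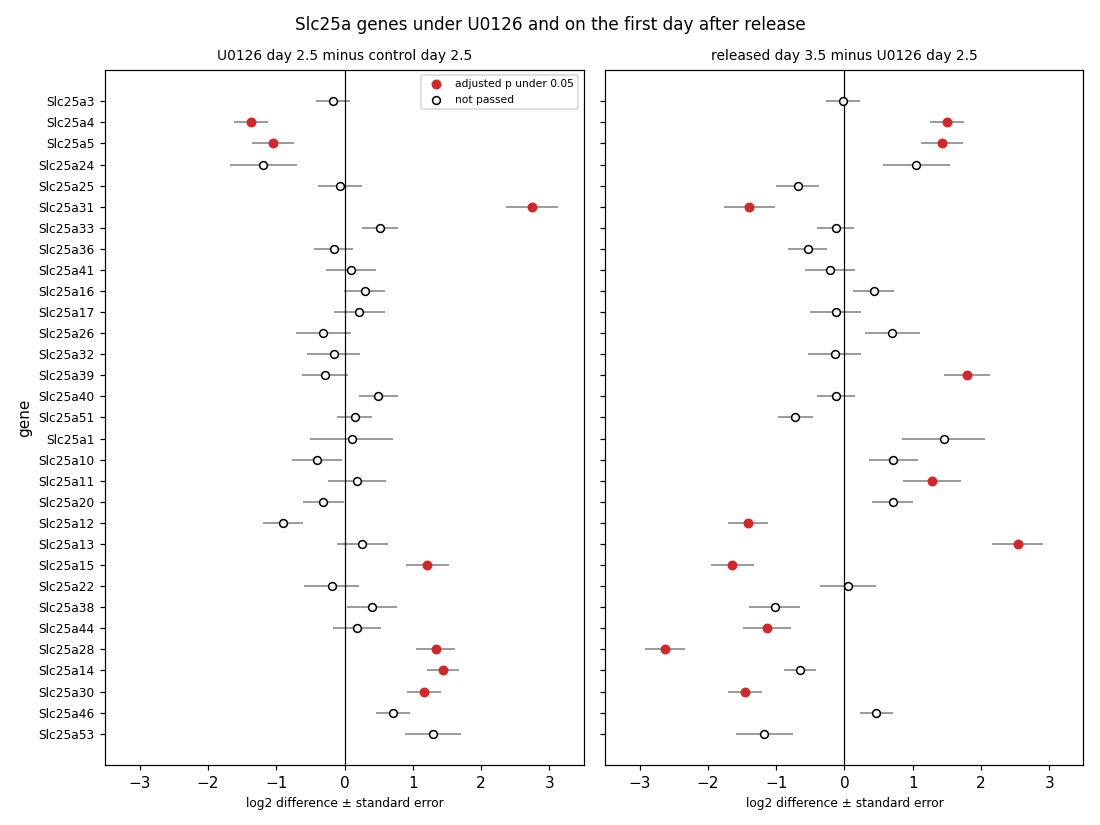
Log2 differences with standard errors for the 31 tested Slc25a genes, U0126 day 2.5 minus control day 2.5 on the left and released day 3.5 minus U0126 day 2.5 on the right; red points have an adjusted p under 0.05. Slc25a31, Slc25a14, Slc25a28, Slc25a15 and Slc25a30 are to the right of 0 under U0126, and all but Slc25a14 among them are red to the left of 0 after release, while Slc25a4 and Slc25a5 do the reverse; both panels share the U0126 arrays.

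Slc25a46, which lies in the outer membrane and acts on mitochondrial shape rather than transport, was at 5.73 and 6.06 in control day 1.5, 7.31 and 7.16 in control day 2.5, 8.97 and 8.65 in control day 3.5, 7.90 and 7.97 in U0126, 8.35 and 8.47 in released day 3.5 and 9.36 and 9.46 in released day 4.5 embryos. Levels were higher at each later group of the control and of the released embryos, with no overlap. They rose by 1.34 ± 0.25 and 1.58 ± 0.25 over the control steps, and by 1.004 ± 0.25 over the last released step (adjusted p = 0.000896, 0.00203 and 0.0238 in limma). U0126 embryos stood 2.04 ± 0.25 above 2-cell embryos and released day 3.5 embryos 1.17 ± 0.25 above control day 2.5 embryos (adjusted p = 7.62e-05 and 0.0137 in limma). The last released step and the released day 3.5 difference were lost without any of their 4 arrays (0.0754 to 0.145 and 0.0542 to 0.0944). The second probe set of the gene gave the opposite at the first step, -1.79 ± 0.54 (adjusted p = 0.0171 in limma), and -1.08 ± 0.54 for U0126 against 2-cell embryos (adjusted p = 0.127), so the direction of these changes depends on the probe set. At the second control step both rose, the second probe set by 2.31 ± 0.54 (adjusted p = 0.0159 in limma). Slc25a53, whose substrate is not settled, lay between 4.35 and 6.37; its U0126 levels of 6.37 and 6.32 were the highest, and it passed in no comparison (1.30 ± 0.42 against control day 2.5, adjusted p = 0.0649 in limma).

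Over all 31 tested carriers, 6 passed in none of the 8 comparisons between 2 groups: Slc25a1, Slc25a17, Slc25a22, Slc25a26, Slc25a40 and Slc25a53. Slc25a12 and Slc25a31 passed in 6 of the 8. The U0126 group held the highest group mean of 7 carriers and the lowest of 0, control day 1.5 the highest of 7 and the lowest of 12, and released day 4.5 the highest of 9 and the lowest of 8. These counts were not taken over all tested genes, so no trait of the family can be read from them. Where the second probe set of a gene was tested, 4 of its differences were opposite to a called one, in Slc25a36, Slc25a46 and Slc25a51, and 1 of these passed itself.

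Of the 12 tested genes that import and fold the carriers, which include the Timm22 translocase, the small Timm chaperones and the Tomm70a receptor, 7 rose and 0 fell from control day 1.5 to control day 2.5, when 55.4% of all tested genes changed (28.0% higher), with a median difference of 1.20. Timm13 rose by 2.81, Tomm70a by 2.75 and Timm22 by 2.49. In U0126 against 2-cell embryos 6 were higher, with 28.1% of all tested genes higher. Against control day 2.5 embryos only Timm29, a subunit of the Timm22 complex, was higher, by 1.20 ± 0.34 (adjusted p = 0.0399 in limma). Of all tested genes, 9.21% were higher there. Of the 8 tested other gates and partners of the carriers, Ckmt1, the mitochondrial creatine kinase that takes ATP from the ADP/ATP carriers, was at 3.81 and 3.42 in control day 1.5, 9.68 and 8.65 in control day 2.5 and 5.85 and 6.37 in U0126 embryos. It lay between 2-cell and control day 2.5 embryos under U0126, as Slc25a4 did, and differed by -3.06 ± 0.40 from control day 2.5 (adjusted p = 0.00197 in limma) and by 2.77 ± 0.40 after release (adjusted p = 0.000880). The 7 other tested genes of this list did not pass between U0126 and control day 2.5 embryos. The list's median difference there was -0.01, with 4.72% of all tested genes lower. After release 2 of the 8 were higher and 1 lower, with 13.7% and 14.5% of all tested genes. Mcu, the calcium uniporter pore, fell by 4.79 ± 0.32 from control day 1.5 to control day 2.5 (adjusted p = 1.03e-06 in limma), and Vdac2, an outer membrane channel, rose by 2.43 ± 0.33 (adjusted p = 0.000104). Of the 11 tested regulators of mitochondrial biogenesis, 4 rose and 3 fell at that step, with 28.0% of all tested genes higher and 27.4% lower. Tfam, which packages mitochondrial DNA, rose by 2.24 ± 0.28 (adjusted p = 6.09e-05 in limma). Under U0126 only Gabpa differed from control day 2.5 embryos, by 0.91 ± 0.25 (adjusted p = 0.0366 in limma), with 13.9% of all tested genes changed. Of the family members with other symbols, Ucp1 and Ucp3 were under 5 on all arrays, and Mtch2 rose by 1.52 ± 0.35 at the first step (adjusted p = 0.00369 in limma).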

How the data were processed

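RNA from ICR mouse embryos was measured on 12 Affymetrix Mouse Genome 430 2.0 arrays after 2 cycles of labelling from 0.1 µg of total RNA, per the labels' protocols. The authors deposited linear intensity values per probe set. The design text names GCOS 1.2 and GeneSpring 7.3, and GCRMA, a method of background correction, quantile normalization and probe summary, is named in the submitters' processing notes. Later scaling, if any, is not stated there, and the absolute unit is arbitrary. From the deposited intensity, log2(intensity + 1) was taken with no further normalization, so differences of genes near background are understated.

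Probe sets were named from the platform annotation: 34958 had 1 symbol, 932 several and 9211 none. All 44 carriers matched the RefSeq gene table (GRCm38.p6) by Entrez ID, and 0 symbols were updated. Genes that reached a log2 level of 5 on 2 arrays or more were tested with limma 3.58.1 in R 4.3.3 (lmFit, contrasts.fit, eBayes), with all 12 arrays and one mean per group, and Benjamini-Hochberg adjustment over 9930 genes for each of 9 comparisons, called under 0.05. The median standard error of a difference was 0.35, with 6 residual and 4.51 prior degrees of freedom. The scripts were tested on simulated data.

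Replicate numbers pair the arrays: the design text gives 2 independent experiments, and deviations from the group means correlated between same-numbered arrays in all 15 pairs of groups (0.12 to 0.42). The fit without the block is the one reported. Alternatives were a pseudocount of 16, no filter, a level of 6, median centring, the replicate block, the mean of a gene's probe sets, a trended robust prior, only the arrays compared, and each array left out in turn. Genes given in full were, by rule, the up to 6 largest rises and falls of each comparison, the member with the highest mean in each role, and genes whose probe sets disagree. The members, lists and tests were chosen with earlier results of these data known.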

Additional observations from a re-analysis of the deposited data

Results flagged for a closer look

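For 2 carriers the last step of development differed between released and control embryos by a test of the difference itself. Of all tested genes, 2.34% passed in this comparison (1.02% higher, 1.32% lower). The Slc25a33 call was lost when any 1 of its arrays was left out, and the Slc25a13 call for some of them, as given above. For Slc25a13 the change between released day 3.5 and 4.5, less the change between control day 2.5 and 3.5, was -2.97 (adjusted p = 0.0204 in limma), and for Slc25a33 it was -1.78 (adjusted p = 0.0396 in limma). For Slc25a13 the released step started from a mean of 8.20, near control day 3.5 (8.61) and not control day 2.5 embryos (5.40). Groups of 2 arrays are too small for a test of single outlying arrays.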

How the results depend on the processing

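Of the 83 calls of carriers, all were kept with a pseudocount of 16, with a level of 6 and with the replicate block, which changed no call other than those given beside the results. Median centring lost 9, no filter 8, a trended robust prior 4 and only the arrays compared 24. The mean of all probe sets kept 68, lost 11, reversed 1 and did not test the 3 of Slc25a30. Without the filter the lost calls were those of Slc25a5 under U0126, Slc25a11 and Slc25a31 (5 calls together), Slc25a44 after release and Slc25a12 at the end, and with the trended prior those of Slc25a11 (2 calls) and Slc25a33 (2 calls). The reversed one was Slc25a46 from control day 1.5 to 2.5, at -0.23 with the mean of its probe sets.

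Counts that moved by over 1.5 times were as follows. With only the arrays compared, 0 carriers passed for U0126 against control day 2.5 and 11 against control day 1.5, 7 after release, and 5 for released day 3.5 against control day 2.5. With the mean of all probe sets, 11 passed for U0126 against control day 1.5. With median centring, 5 passed for released day 3.5 against control day 2.5 and 1 for the difference between the last steps. With the replicate block, 9 passed from released day 3.5 to 4.5 and 4 for the difference between the last steps. Leaving out 1 array, where the lone array of its group is assumed to vary like the other groups, gave 16 to 19 carriers from control day 1.5 to 2.5 and 4 to 7 from control day 2.5 to 3.5. It gave 3 to 5 for U0126 against control day 2.5, 13 to 17 against control day 1.5 and 8 to 13 after release. It gave 2 to 4 for released day 3.5 against control day 2.5, 0 to 3 for released day 4.5 against control day 3.5, 2 to 6 from released day 3.5 to 4.5 and 0 to 1 for the difference between the last steps. Fewer arrays leave fewer degrees of freedom; other causes were not tested. Arrays of 2 per group limit the precision, and the 13 untested carriers have no call.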
